A study of Mus musculus with 14 samples.

Results

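Expression of 10 astrocyte enzymes of amino acid and folate metabolism, encoded by Phgdh, Psat1, Psph, Gldc, Aldh1l1, Cbs, Glul, Glud1, Prodh and Etnppl, was followed through cells sorted from the adult mouse brain. They were found by gene symbol among the probe sets of an Affymetrix mouse expression array, where all 10 were present among 18193 genes, with 19 of 45037 probe sets. Of these genes 3 had 1 probe set and 7 had more. A further 2 probe sets shared by Phgdh and another symbol were left out.

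The cells came from hGFAP eGFP mice aged 8 weeks. In these mice enhanced green fluorescent protein (GFP) is made under the human GFAP promoter, so that the GFP gate collects cells that hold GFP from this transgene. All 5 groups carry the transgene, and no other treatment is given in the labels. From the subependymal zone (SEZ), the neurogenic layer beside the lateral ventricle, came cells positive for GFP and prominin (SEZ_GFPprom, 4 arrays), for GFP (SEZ_GFP, 2 arrays), for prominin (SEZ_Prom, 2 arrays) and for CD24 (SEZ_CD24, 2 arrays). From the diencephalon came cells positive for GFP (DIEC_GFP, 4 arrays). In the labels SEZ_GFPprom, SEZ_GFP and SEZ_Prom are neural stem cells, SEZ_CD24 is ependymal and DIEC_GFP is astrocytes. The GFP state of the prominin and CD24 sorts is not given in the sources used here. SEZ_GFP and DIEC_GFP are both named for GFP alone and differ in region and in labelled cell type. Their names do not tell whether prominin-positive cells were left out of either. In the other comparisons with DIEC_GFP region and gate cannot be told apart. The arrays of a group are labelled biological replicates with no more said about separate animals, so a p-value here reflects array-to-array spread, which may be technical.

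Astrocytes make serine from a glycolytic intermediate through Phgdh, Psat1 and Psph, and serine feeds glycine, folate-bound carbon units and, through Cbs, the route to cysteine and glutathione. Glycine is split by the cleavage system of which Gldc is a part, and Aldh1l1 removes formyl groups from the folate pool. Astrocytes also take up glutamate, which Glul turns into glutamine and Glud1 into an intermediate of the citric acid cycle.

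Over the brightest probe set of each gene, Pearson's r was 0.942 to 0.979 within groups and 0.845 to 0.952 between groups. The labels were set against marker genes. Log2 intensity of Prom1 averaged 8.98 in SEZ_GFPprom, 8.18 in SEZ_GFP, 8.02 in SEZ_Prom, 7.49 in SEZ_CD24 and 8.03 in DIEC_GFP. In the same order Gfap averaged 8.65, 7.68, 7.64, 5.13 and 8.55, and Cd24a 10.26, 10.75, 8.65, 11.47 and 9.20. Prom1 RNA thus did not set SEZ_Prom above SEZ_GFP or DIEC_GFP. The summed intensity of 15 astrocyte markers was 21788 to 23659 in SEZ_GFPprom, 20010 to 24503 in SEZ_GFP, 22757 to 27165 in SEZ_Prom, 5589 and 15435 in SEZ_CD24 and 27526 to 55119 in DIEC_GFP. The lowest DIEC_GFP sum belonged to replicate 4, and the other 3 arrays lay at 50881 or more. On replicate 4 choroid plexus markers summed to 8643, against 1004 to 2266 on the other 3. Mature neuron markers summed to 238 on it, against 2588 to 3471 on the other 3. The 12 ependymal markers summed to 16074 to 28003 in SEZ_GFPprom, 859 to 1609 in SEZ_GFP, 782 to 1226 in SEZ_Prom, 431 to 764 in SEZ_CD24 and 5169 to 9001 in DIEC_GFP. Against DIEC_GFP 10 of them were higher in SEZ_GFPprom and 11 were lower in SEZ_CD24 at an adjusted p under 0.05. The label ependymal goes against these markers, so SEZ_CD24 is called the CD24 sort here. Neuroblast markers (11 genes) summed to 16555 to 30132 in the CD24 sort and to 2736 to 2926 in DIEC_GFP. They summed to 17144 to 17880 in SEZ_GFP, 5377 to 9060 in SEZ_GFPprom and 2668 to 5325 in SEZ_Prom. Microglial markers (10 genes) summed to 13394 to 26864 in the CD24 sort and to 2997 to 12633 in DIEC_GFP. The part of these cells in the differences of the 10 genes was not tested, and in RNA of sorted cells fewer cells of a type and less RNA per cell cannot be told apart. SEZ_CD24 replicate 2, with the lower astrocyte sum, and DIEC_GFP replicate 4 are named beside the results that rest on them.

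Each gene was read by its brightest probe set, as log2 intensity, and differences between groups were tested with limma on all probe sets with Benjamini-Hochberg adjustment and a threshold of 0.05. Across the 5 groups 7 of the 10 genes differed by the moderated F test, as did 22.6% of all genes, and Glul (adjusted p = 0.826), Glud1 (0.117) and Prodh (0.126) did not pass. Against DIEC_GFP the CD24 sort stood furthest away, with 7 of the 10 genes lower and 0 higher, where 8.76% of all genes were lower and 6.03% higher. The median difference of the 10 genes was -1.64, against -0.01 for all genes. At an unadjusted p under 0.05, 8 genes were lower and 0 higher in the CD24 sort, as were 15.6% and 13.3% of all genes. The count of 7 rested on SEZ_CD24 replicate 2, without which 2 genes, Phgdh and Psat1, were called lower, and with only the groups compared in the fit 3 were, these and Etnppl. SEZ_GFPprom against DIEC_GFP had 1 gene higher and 1 lower, with 8.83% and 6.77% of all genes called in these directions. SEZ_GFP and SEZ_Prom each had 1 gene lower than DIEC_GFP and 0 higher, where the lower calls were 6.10% and 2.33% of all genes and the higher calls 4.94% and 2.82%. At an unadjusted p under 0.05, SEZ_GFP had 1 gene higher and 4 lower (11.9% and 13.6% of all genes) and SEZ_Prom 1 higher and 2 lower (10.2% and 9.08%).

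Among the SEZ sorts, 6 of the 10 genes were higher in SEZ_GFPprom than in the CD24 sort and 0 lower, where 8.0% of all genes were higher and 4.01% lower. The median difference was 1.60, against 0.10 for all genes. SEZ_GFPprom against SEZ_Prom had 1 gene higher and 0 lower, with 3.50% and 1.88% of all genes called. SEZ_GFPprom against SEZ_GFP had 0 genes called in either direction, with 2.22% of all genes higher and 0.346% lower, and at an unadjusted p under 0.05 Psph was higher and 0 genes lower, as were 9.53% and 5.45% of all genes. These comparisons share arrays, so their counts are not independent. The group mean was lowest in the CD24 sort for 7 of the 10 genes, in SEZ_GFP for 2 and in DIEC_GFP for 1.

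**Figure D1:**
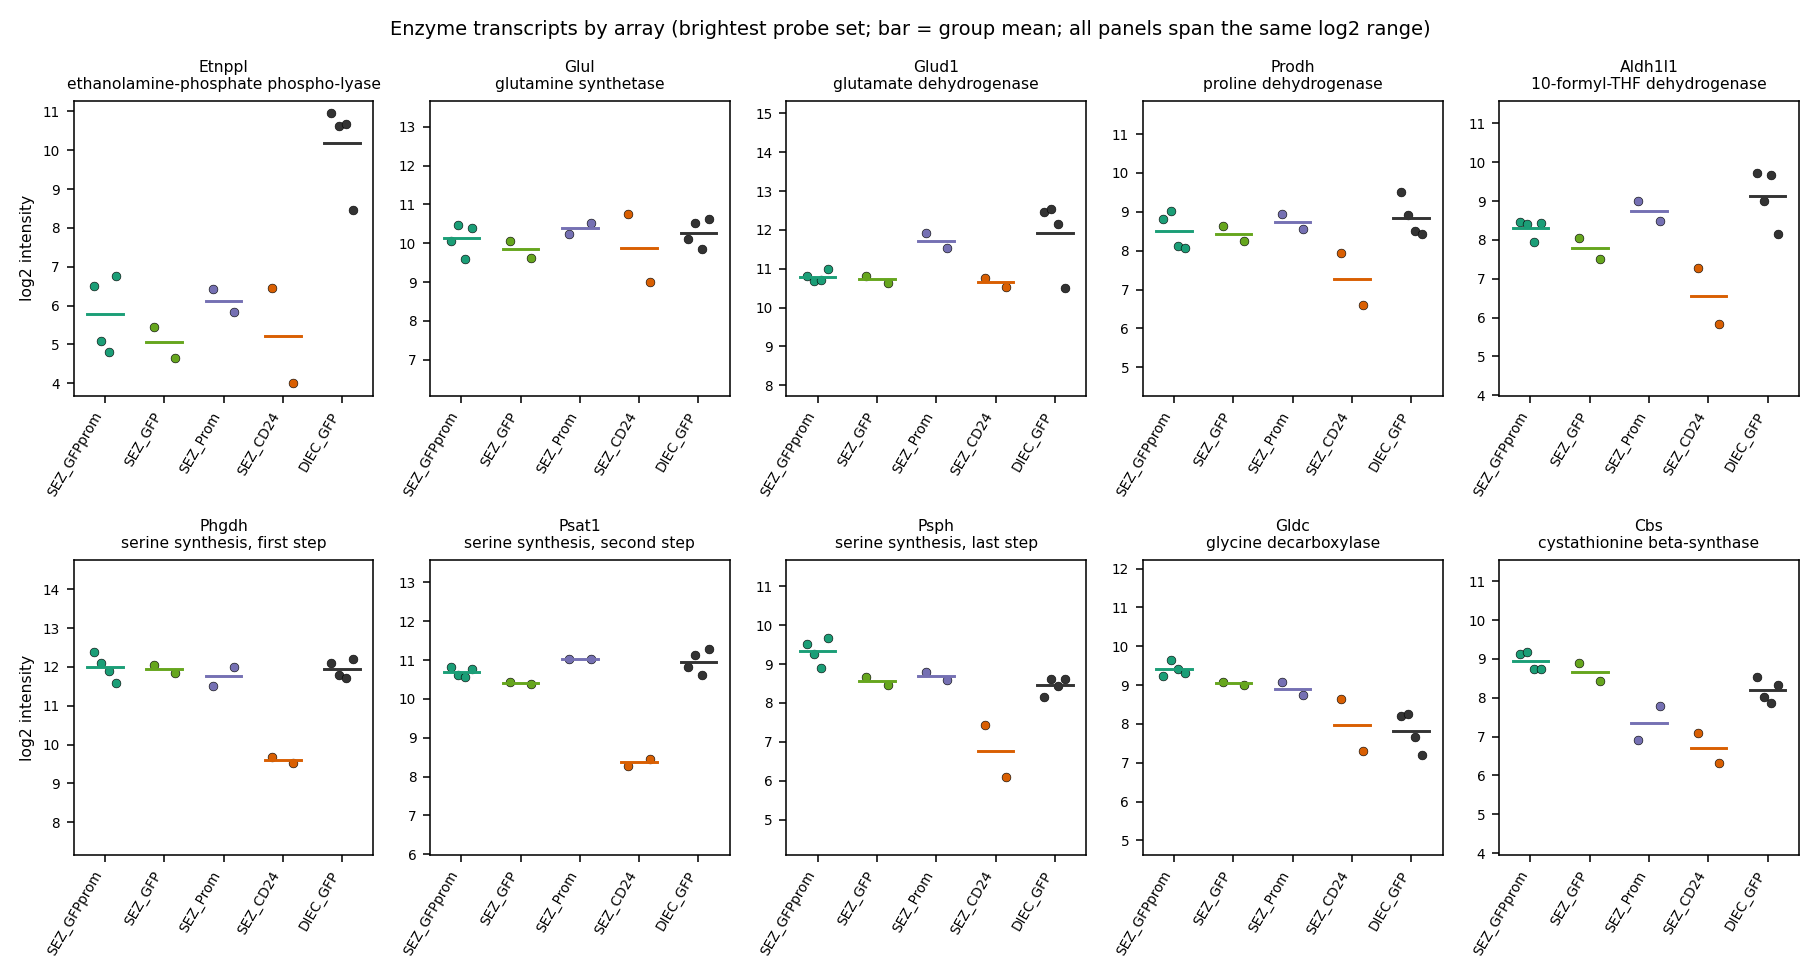
Log2 intensity of the brightest probe set of each of the 10 genes on each array (points), with the group mean (bar), in the 5 sort groups. The 2 SEZ_CD24 arrays lie below all others for Phgdh, Psat1, Psph, Aldh1l1 and Prodh, and the 4 DIEC_GFP arrays lie above all others for Etnppl.

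The group means of the serine synthesis genes were lowest in the CD24 sort, as were those of 7 of the 10 genes in all. The promoters of these 3 serine synthesis genes are shown as those of the same pathway. Each run is the 250 bases before the gene start from RefSeq (GRCm38.p6), 5′ to 3′ on the gene's strand, with the letters CCAAT, or ATTGG where they lie on the other strand, in capitals. The Phgdh window is chr3:98339970-98340219 on the minus strand, that of Psat1 chr19:15925060-15925309 on the minus strand and that of Psph chr5:129787254-129787503 on the minus strand.
Phgdh: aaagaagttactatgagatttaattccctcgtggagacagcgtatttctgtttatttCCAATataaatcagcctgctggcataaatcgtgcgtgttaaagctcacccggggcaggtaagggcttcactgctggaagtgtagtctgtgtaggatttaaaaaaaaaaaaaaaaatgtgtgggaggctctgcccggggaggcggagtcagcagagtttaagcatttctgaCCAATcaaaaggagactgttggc
Psat1: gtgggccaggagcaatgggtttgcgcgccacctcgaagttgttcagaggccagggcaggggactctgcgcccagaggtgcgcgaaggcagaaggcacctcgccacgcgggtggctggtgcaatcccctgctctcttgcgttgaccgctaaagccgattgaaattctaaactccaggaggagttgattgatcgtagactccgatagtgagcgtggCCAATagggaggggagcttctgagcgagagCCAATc
Psph: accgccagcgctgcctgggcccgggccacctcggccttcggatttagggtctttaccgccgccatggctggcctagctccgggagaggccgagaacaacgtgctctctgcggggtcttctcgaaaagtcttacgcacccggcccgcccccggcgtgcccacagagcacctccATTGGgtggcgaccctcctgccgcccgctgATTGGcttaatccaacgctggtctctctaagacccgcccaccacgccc

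The letters CCAAT, searched on both strands, occurred at 189 and 19 bases before the start of Phgdh, counted to the motif's last base, at 32 and 2 bases before that of Psat1 and at 74 and 44 bases before that of Psph. The table holds a second Psat1 start, whose window has no match. These letters were found in 7 of the 12 windows listed for the 10 genes and in 33.9% of 32851 mouse promoter windows of the same length. GGGCGG was found in 8 of the 12 windows listed for the 10 genes and in 32.7% of all windows, and TGATGNAAT in 0 of the 12 and in 0.816% of all. These matches describe the letters and show no binding.

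Phgdh encodes the dehydrogenase that opens serine synthesis. Its level was 12.37, 12.11, 11.89 and 11.58 in SEZ_GFPprom, 12.06 and 11.84 in SEZ_GFP, 11.51 and 11.999 in SEZ_Prom, 9.69 and 9.54 in SEZ_CD24, and 12.10, 11.78, 11.71 and 12.21 in DIEC_GFP. The CD24 arrays lay below all others, and the remaining 4 groups overlapped. Phgdh differed by -2.34 ± 0.24 (SE) between SEZ_CD24 and DIEC_GFP, 5.07-fold lower (adjusted p = 0.000207), and by 2.38 ± 0.24 between SEZ_GFPprom and SEZ_CD24 (adjusted p = 0.000191). Its interval between SEZ_GFPprom and DIEC_GFP was -0.39 to 0.46 (95%), which leaves room for a difference of that size in either direction. Without SEZ_CD24 replicate 2 the first difference was -2.27 (adjusted p = 0.00395, within a range of 0.000115 to 0.00931 over the alternatives run). All 4 probe sets of Phgdh carry sequence that other transcripts may share, and all 4 were called lower in SEZ_CD24 than in DIEC_GFP. The other 3 gave smaller differences of -1.42, -1.55 and -1.64, or 2.68-fold to 3.11-fold.

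Psat1 encodes the aminotransferase of the second step, which draws its amino group from glutamate. It stood at 10.81, 10.62, 10.55 and 10.78 in SEZ_GFPprom, 10.43 and 10.39 in SEZ_GFP, 11.03 and 11.04 in SEZ_Prom, 8.27 and 8.46 in SEZ_CD24, and 10.81, 11.13, 10.60 and 11.28 in DIEC_GFP. Again the CD24 arrays were apart from all others, and the SEZ_GFP arrays lay just below the lowest DIEC_GFP array. The difference between SEZ_CD24 and DIEC_GFP was -2.59 ± 0.19 (SE), or 6.01-fold (adjusted p = 4.37e-05), and that between SEZ_GFPprom and SEZ_CD24 was 2.32 ± 0.19 (adjusted p = 6.54e-05). Without SEZ_CD24 replicate 2 the first was -2.68 (adjusted p = 0.000502, within a range of 2.89e-05 to 0.00986).

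The dimmer Psat1 probe set also separated the GFP sorts of the SEZ. It stood at 9.81, 9.29, 9.38 and 9.06 in SEZ_GFPprom, 9.36 and 8.97 in SEZ_GFP, 11.17 and 11.11 in SEZ_Prom, 8.16 and 8.24 in SEZ_CD24, and 10.78, 11.79, 10.62 and 10.89 in DIEC_GFP. The SEZ_GFPprom and SEZ_GFP arrays thus lay between the CD24 sort and the other groups, with no overlap. By this probe set Psat1 was lower in SEZ_GFPprom than in DIEC_GFP by -1.64 (3.11-fold, adjusted p = 0.00224) and lower in SEZ_GFP than in DIEC_GFP by -1.86 (adjusted p = 0.00383). It also differed by -1.75 between SEZ_GFPprom and SEZ_Prom (adjusted p = 0.00999). By the brighter probe set the same 3 differences were -0.27, -0.54 and -0.34, with adjusted p = 0.303, 0.118 and 0.395. The brighter probe set carries sequence that other transcripts may share, and the dimmer one is free of shared sequence. The probe sets of this gene disagree on whether SEZ cells of the GFP gate have less Psat1 RNA than diencephalic ones.

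Psph encodes the phosphatase that releases serine. Its level was 9.53, 9.26, 8.91 and 9.68 in SEZ_GFPprom, 8.66 and 8.45 in SEZ_GFP, 8.80 and 8.60 in SEZ_Prom, 7.43 and 6.09 in SEZ_CD24, and 8.16, 8.63, 8.43 and 8.62 in DIEC_GFP. SEZ_GFPprom lay above every other array and the CD24 sort below every other. Psph was 3.24-fold lower in SEZ_CD24 than in DIEC_GFP (-1.70 ± 0.33, SE, adjusted p = 0.00687) and 5.98-fold higher in SEZ_GFPprom than in SEZ_CD24 (2.58 ± 0.33, adjusted p = 0.000949). Without SEZ_CD24 replicate 2 the first of these was -1.02 and missed the threshold (adjusted p = 0.077), within a range of 0.000813 to 0.077 over its alternatives. SEZ_GFPprom exceeded DIEC_GFP by 0.88 ± 0.27, just short of the threshold (adjusted p = 0.0549), and passed without either SEZ_CD24 array (adjusted p = 0.0137) and without SEZ_GFPprom replicate 3 (0.0459), within a range of 0.0137 to 0.697. Over the 14 arrays Phgdh and Psat1 correlated at r = 0.923 and Phgdh and Psph at r = 0.813, as a description of arrays that share their group, with no test.

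Gldc was the gene of the 10 whose mean was lowest in the diencephalic cells. It encodes the glycine decarboxylase of the cleavage system, which passes a carbon unit of glycine to folate. Its level was 9.23, 9.65, 9.42 and 9.32 in SEZ_GFPprom, 9.08 and 9.01 in SEZ_GFP, 9.08 and 8.74 in SEZ_Prom, 8.64 and 7.29 in SEZ_CD24, and 8.19, 8.24, 7.67 and 7.19 in DIEC_GFP. The SEZ_GFPprom, SEZ_GFP and SEZ_Prom arrays all lay above the DIEC_GFP arrays, and the CD24 arrays overlapped them. Gldc exceeded DIEC_GFP in SEZ_GFPprom by 1.58 ± 0.30 (SE, adjusted p = 0.00649), a call kept under all 25 alternatives run. In SEZ_GFP it exceeded DIEC_GFP by 1.22 ± 0.36 and in SEZ_Prom by 1.09 ± 0.36, which did not pass (adjusted p = 0.0667 and 0.151). The SEZ_GFP difference passed without either SEZ_CD24 array (adjusted p = 0.0253), within a range of 0.0253 to 0.282.

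Gldc was also higher in SEZ_GFPprom than in SEZ_CD24, by 1.44 ± 0.36 (adjusted p = 0.0314). This call rested on few arrays: without SEZ_CD24 replicate 2 the difference was 0.77 (adjusted p = 0.322), and without SEZ_GFPprom replicate 1, 2, 3 or 4 the adjusted p was 0.0504, 0.070, 0.0529 or 0.0532, and with only the groups compared it was 0.101, within a range of 0.00902 to 0.322. The CD24 sort and DIEC_GFP differed in Gldc by 0.14, with an interval of -0.66 to 0.94.

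Aldh1l1, the cytosolic formyltetrahydrofolate dehydrogenase and a widely used astrocyte marker, was highest on average in DIEC_GFP and lowest in the CD24 sort. It stood at 8.46, 8.40, 7.94 and 8.43 in SEZ_GFPprom, 8.04 and 7.52 in SEZ_GFP, 9.0 and 8.48 in SEZ_Prom, 7.27 and 5.83 in SEZ_CD24, and 9.73, 9.0, 9.66 and 8.14 in DIEC_GFP. DIEC_GFP replicate 4 fell among the SEZ_GFPprom arrays, while the other DIEC_GFP arrays were at or above the highest SEZ array. The difference between SEZ_CD24 and DIEC_GFP was -2.58 ± 0.47 (SE), 5.99-fold lower (adjusted p = 0.00475), and without SEZ_CD24 replicate 2 it was -1.87 (adjusted p = 0.0739, within a range of 0.00159 to 0.0754). The differences of SEZ_GFPprom (-0.83, adjusted p = 0.194) and SEZ_GFP (-1.35, adjusted p = 0.115) from DIEC_GFP did not pass. Without DIEC_GFP replicate 4 they were -1.16 (adjusted p = 0.0491) and -1.68 (adjusted p = 0.0269), within ranges of 0.0491 to 0.567 and 0.0269 to 0.569.

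SEZ_GFPprom exceeded SEZ_CD24 in Aldh1l1 by 1.75 ± 0.47 (adjusted p = 0.0391), but 11 of 25 alternatives lost this call, among them leaving out SEZ_CD24 replicate 2 (1.04, adjusted p = 0.364), SEZ_GFPprom replicate 1 (0.0769), 2 (0.0782) or 4 (0.0736), and either array of SEZ_GFP (0.0517) or SEZ_Prom (0.052), within a range of 0.0187 to 0.364. The dimmer Aldh1l1 probe set, at 3.32 to 6.11 over all arrays, passed in none of the 7 comparisons, and had an unadjusted p under 0.05 for SEZ_GFP and for SEZ_CD24 against DIEC_GFP.

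Cbs, which joins serine to homocysteine at the entry to cysteine synthesis, was highest on average in the GFP sorts of the SEZ. It stood at 9.13, 9.17, 8.74 and 8.74 in SEZ_GFPprom, 8.89 and 8.44 in SEZ_GFP, 6.91 and 7.79 in SEZ_Prom, 7.10 and 6.32 in SEZ_CD24, and 8.55, 8.02, 7.87 and 8.34 in DIEC_GFP. The prominin and CD24 sorts overlapped each other and lay below the other 3 groups. Cbs was 3.03-fold higher in SEZ_GFPprom than in SEZ_Prom (1.60 ± 0.31, SE, adjusted p = 0.0172), the 1 gene of the 10 called between these sorts. It was 4.72-fold higher in SEZ_GFPprom than in SEZ_CD24 (2.24 ± 0.31, adjusted p = 0.00152) and 2.80-fold lower in SEZ_CD24 than in DIEC_GFP (-1.48 ± 0.31, adjusted p = 0.0100). The dimmer probe set, free of shared sequence, gave 2.02-fold between SEZ_GFPprom and SEZ_CD24 (1.02, adjusted p = 0.0176).

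The Cbs difference between SEZ_GFPprom and SEZ_Prom was lost without SEZ_Prom replicate 1 (1.15, adjusted p = 0.197) and, in the probe set free of shared sequence, it was 0.59 (adjusted p = 0.208), within a range of 0.0102 to 0.208. The difference between SEZ_CD24 and DIEC_GFP was lost without SEZ_CD24 replicate 2 (-1.10, adjusted p = 0.129), within a range of 0.00644 to 0.129. The dimmer Cbs probe set differed by -0.77 there, at the threshold: the adjusted p was 0.0499, and 0.052 in the fit without shared-sequence probe sets. With only the groups compared in the fit, the brighter set missed the threshold both there (0.055) and between SEZ_GFPprom and SEZ_Prom (0.0627). By the brighter set SEZ_GFPprom and DIEC_GFP differed in Cbs by 0.75 with no overlap between their arrays, and this did not pass (adjusted p = 0.0771, interval 0.20 to 1.31). The dimmer set gave 0.25 there (adjusted p = 0.429), and its arrays of the 2 groups overlapped.

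Glul encodes glutamine synthetase, which turns glutamate and ammonia into glutamine and is a classical astrocyte enzyme. Its brighter probe set stood at 10.06, 10.46, 9.59 and 10.40 in SEZ_GFPprom, 10.07 and 9.63 in SEZ_GFP, 10.24 and 10.52 in SEZ_Prom, 10.75 and 8.99 in SEZ_CD24, and 10.10, 10.52, 9.84 and 10.63 in DIEC_GFP. The CD24 arrays were the highest and the lowest of the 14, both SEZ_GFP arrays lay below both SEZ_Prom arrays, and the other pairs of groups overlapped. No comparison passed, and the interval between SEZ_GFPprom and DIEC_GFP was -0.91 to 0.62.

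The dimmer Glul probe set showed another order. It stood at 6.74, 7.80, 7.64 and 7.77 in SEZ_GFPprom, 7.83 and 7.74 in SEZ_GFP, 8.47 and 9.26 in SEZ_Prom, 8.81 and 6.87 in SEZ_CD24, and 9.48, 8.97, 9.63 and 9.46 in DIEC_GFP. The SEZ_GFPprom, SEZ_GFP and CD24 arrays all lay below the DIEC_GFP arrays, and SEZ_Prom overlapped them. By this probe set Glul was 3.73-fold lower in SEZ_GFPprom than in DIEC_GFP (-1.90 ± 0.39, SE, adjusted p = 0.00985), whereas SEZ_GFP (-1.60, adjusted p = 0.0656) and SEZ_CD24 (-1.55, adjusted p = 0.0619) missed the threshold. The files do not say which part of the transcript each probe set reads, so which of them reports the Glul level was not tested.

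Glud1, the mitochondrial glutamate dehydrogenase, varied more between diencephalic arrays than between SEZ arrays by its brighter probe set only. Its brighter probe set stood at 10.81, 10.68, 10.70 and 10.98 in SEZ_GFPprom, 10.82 and 10.63 in SEZ_GFP, 11.93 and 11.53 in SEZ_Prom, 10.77 and 10.52 in SEZ_CD24, and 12.45, 12.54, 12.16 and 10.51 in DIEC_GFP. DIEC_GFP replicate 4 was the lowest of all arrays and the other 3 DIEC_GFP arrays were the highest. With all arrays no difference passed, and SEZ_GFPprom stood at -1.12 ± 0.37 from DIEC_GFP (adjusted p = 0.0738). Without DIEC_GFP replicate 4 Glud1 was lower than in DIEC_GFP in SEZ_GFPprom (-1.59, adjusted p = 0.000355), SEZ_GFP (-1.66, adjusted p = 0.000787) and SEZ_CD24 (-1.74, adjusted p = 0.000496). Over all alternatives these adjusted p ranged from 0.000355 to 0.633, from 0.000787 to 0.920 and from 0.000496 to 0.367. SEZ_GFPprom and SEZ_Prom also differed without that array (-0.93, adjusted p = 0.0189, range 0.0189 to 0.719), since the groups share 1 estimate of the spread.

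The dimmer Glud1 probe set ranged from 9.42 in the CD24 sort to 11.29 in DIEC_GFP, with an SD of 0.41 in DIEC_GFP and 0.52 in SEZ_GFPprom. It was lower in SEZ_CD24 than in DIEC_GFP by -1.49 ± 0.33 (2.80-fold, adjusted p = 0.0152), and both CD24 arrays lay below all others.

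Prodh, the proline dehydrogenase that starts the breakdown of proline to glutamate, stood at 8.82, 9.02, 8.12 and 8.07 in SEZ_GFPprom, 8.63 and 8.25 in SEZ_GFP, 8.95 and 8.55 in SEZ_Prom, 7.93 and 6.60 in SEZ_CD24, and 9.52, 8.91, 8.51 and 8.42 in DIEC_GFP. The CD24 arrays were below all others, replicate 1 by a small margin. Prodh was 2.98-fold lower in SEZ_CD24 than in DIEC_GFP (-1.58 ± 0.42, SE, adjusted p = 0.0353). This call was lost without SEZ_CD24 replicate 2 (-0.91, adjusted p = 0.341) and without DIEC_GFP replicate 1 (0.0697) or 2 (0.067), with values under 10 set to 10 (0.0583) and with a covariate for RNA quality, the 3' to 5' ratio of Gapdh and beta-actin controls (0.0726), within a range of 0.00643 to 0.341. Between SEZ_GFPprom and SEZ_CD24 the difference of 1.24 did not pass (adjusted p = 0.0932) and passed without SEZ_CD24 replicate 1 (1.91, adjusted p = 0.0408), within a range of 0.0178 to 0.612.

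**Figure D2:**
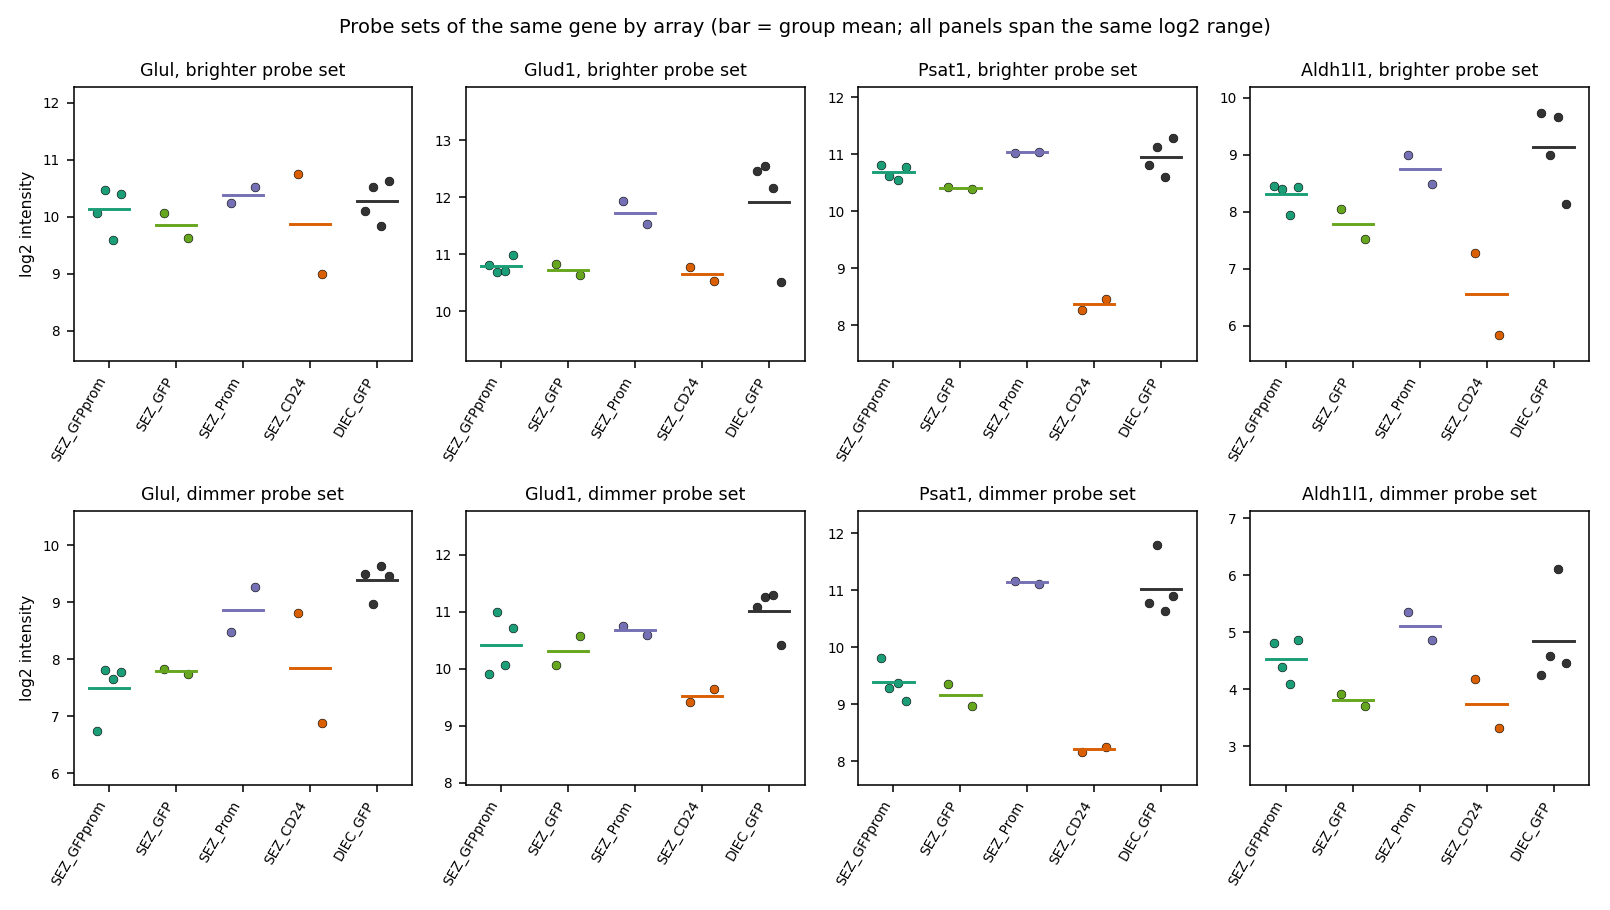
Log2 intensity on each array (points) and group means (bars) for the brighter (top) and dimmer (bottom) probe sets of Glul, Glud1, Psat1 and Aldh1l1 in the 5 sort groups, with the same log2 span in every panel. The dimmer sets of Glul and Psat1 place the 4 SEZ_GFPprom arrays below all 4 DIEC_GFP arrays, and their brighter sets do not.

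Etnppl had the largest differences of the 10 genes in each comparison with DIEC_GFP. It encodes an ethanolamine-phosphate phospho-lyase, an enzyme of phospholipid breakdown that uses the same cofactor as amino acid transaminases. Its RefSeq promoter window (GRCm38.p6, chr3:130617198-130617447, plus strand) is shown because the gene separates diencephalic cells from all SEZ sorts, and it holds no CCAAT on either strand, so no letters are in capitals. The table lists a second Etnppl start, whose window (chr3:130617325-130617574) holds no CCAAT and 1 GGGCGG.
Etnppl: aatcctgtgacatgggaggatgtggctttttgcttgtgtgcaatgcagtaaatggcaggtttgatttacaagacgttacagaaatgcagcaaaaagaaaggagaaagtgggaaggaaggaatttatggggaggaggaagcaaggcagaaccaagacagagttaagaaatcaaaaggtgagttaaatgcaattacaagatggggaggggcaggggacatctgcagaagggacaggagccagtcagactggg

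Etnppl stood at 6.49, 5.09, 4.81 and 6.75 in SEZ_GFPprom, 5.46 and 4.64 in SEZ_GFP, 6.43 and 5.83 in SEZ_Prom, 6.44 and 4.00 in SEZ_CD24, and 10.95, 10.64, 10.66 and 8.46 in DIEC_GFP. All SEZ arrays lay below all DIEC_GFP arrays, DIEC_GFP replicate 4 was the closest to them, and both SEZ_GFP arrays lay below both SEZ_Prom arrays, while the other pairs of SEZ sorts overlapped. Etnppl was 21.0-fold lower in SEZ_GFPprom than in DIEC_GFP (-4.39 ± 0.68, SE, adjusted p = 0.00257), 34.9-fold lower in SEZ_GFP (-5.12 ± 0.84, adjusted p = 0.00376), 16.5-fold lower in SEZ_Prom (-4.05 ± 0.84, adjusted p = 0.0232) and 31.0-fold lower in SEZ_CD24 (-4.95 ± 0.84, adjusted p = 0.00326). Without DIEC_GFP replicate 4 the differences were -4.96 in SEZ_GFPprom (adjusted p = 0.000991, within a range of 0.000751 to 0.028), -5.70 in SEZ_GFP, -4.62 in SEZ_Prom and -5.53 in SEZ_CD24.

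The SEZ_GFPprom call on Etnppl was kept under all 25 alternatives. The SEZ_GFP call was lost without SEZ_GFP replicate 2 (-4.72, adjusted p = 0.0641, range 0.00105 to 0.0641) and the SEZ_CD24 call without SEZ_CD24 replicate 2 (-3.73, adjusted p = 0.0527, range 0.000921 to 0.0527). The SEZ_Prom call was lost without SEZ_Prom replicate 1 (-4.34, adjusted p = 0.129) or 2 (-3.75, 0.173) and without DIEC_GFP replicate 1 (-3.79, 0.0508) or 2 (-3.89, 0.0559), within a range of 0.00804 to 0.210. With the log2 ratio of 3' to 5' control signal as covariate the adjusted p was 0.0544 in SEZ_GFP and 0.210 in SEZ_Prom, and with only the groups compared it was 0.0833 in SEZ_Prom. That ratio averaged 4.94 in SEZ_GFPprom, 4.73 in SEZ_GFP, 4.63 in SEZ_Prom, 5.15 in SEZ_CD24 and 5.40 in DIEC_GFP. The dimmer Etnppl probe set stood at an intensity of 4 to 6 in SEZ_GFPprom, 4 to 5 in SEZ_GFP, 5 to 8 in SEZ_Prom, 5 to 11 in SEZ_CD24 and 19 to 74 in DIEC_GFP. With values under 10 set to 10 it was lower in each SEZ sort than in DIEC_GFP by -2.02 to -2.09, which understates the difference where the SEZ arrays are at background.

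**Figure D3:**
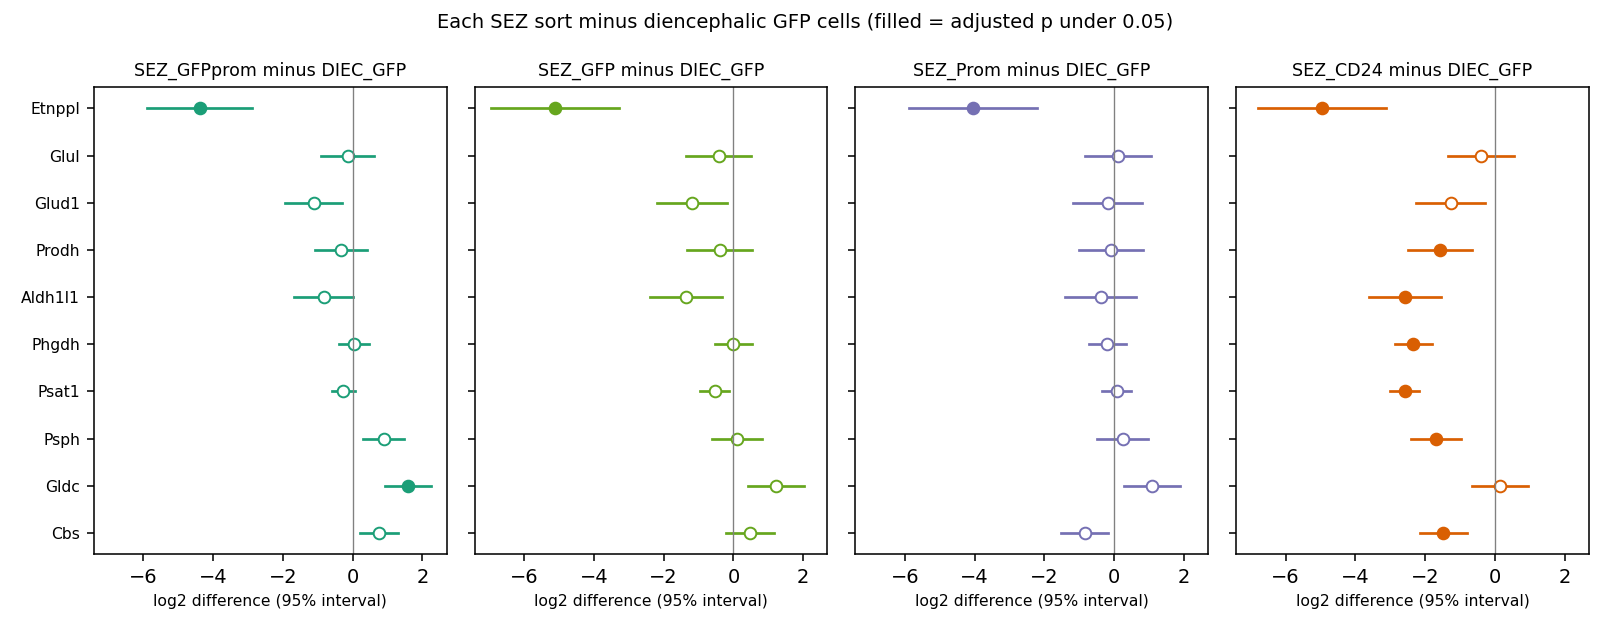
Log2 difference of each SEZ sort from DIEC_GFP for the 10 genes (points) with 95% intervals (lines), filled where the adjusted p of limma is under 0.05. Etnppl lies farthest to the left in each panel, from -4.05 in SEZ_Prom to -5.12 in SEZ_GFP, and the panel of SEZ_CD24 holds 7 filled points.

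The 10 genes were then set among other enzymes of their pathways. Of 20 further genes of glutamate and proline metabolism 15 were measured. In SEZ_GFPprom against DIEC_GFP 2 rose and 1 fell, where 8.83% of all genes rose and 6.77% fell. The median was -0.21 over the 15 and 0.08 over all genes. Aldh18a1, which makes the precursor of proline, averaged 8.35 in SEZ_GFPprom and 5.08 in DIEC_GFP (adjusted p = 0.000173). It was also higher than in DIEC_GFP in SEZ_GFP (3.92, adjusted p = 0.000214) and SEZ_CD24 (2.97, 0.000743). In SEZ_Prom it did not pass (1.06, 0.185). Gad2, which makes the transmitter GABA from glutamate, averaged 6.69 in SEZ_GFPprom and 5.24 in DIEC_GFP (adjusted p = 0.0144). Gad2 was also higher than in DIEC_GFP in SEZ_GFP (2.01, adjusted p = 0.0093), SEZ_Prom (2.35, 0.00856) and SEZ_CD24 (2.83, 0.00105). Bcat1, a branched-chain aminotransferase, averaged 6.29 in SEZ_GFPprom and 8.73 in DIEC_GFP (adjusted p = 0.0073). Against DIEC_GFP, SEZ_GFP had 3 of the 15 higher and 0 lower, where 4.94% and 6.10% of all genes were. SEZ_Prom had 1 higher and 0 lower (2.82% and 2.33% of all genes), and the CD24 sort 3 higher and 1 lower (6.03% and 8.76%). The GABA enzyme gene Gad1 was higher than in DIEC_GFP by 3.63 in the CD24 sort (adjusted p = 0.0109) and by 3.28 in SEZ_GFP (0.0234). In both sorts the neuroblast markers were also higher than in DIEC_GFP (11 of 11 called, and 6.03% and 4.94% of all genes). Gad1 did not pass in SEZ_GFPprom (1.98, adjusted p = 0.062) or SEZ_Prom (2.63, 0.0973). Of the 11 markers 8 were called higher in SEZ_GFPprom (8.83% of all genes). In SEZ_Prom 5 were higher (2.82%) and 1 lower (2.33%). The part of neuroblasts in the Gad1 values was not tested.

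Of 11 further genes of serine and glycine use 7 were measured. In SEZ_GFPprom against DIEC_GFP 2 rose and 2 fell, where 8.83% of all genes rose and 6.77% fell. In SEZ_GFP 1 rose and 3 fell (4.94% and 6.10% of all genes), and in the CD24 sort 0 rose and 3 fell (6.03% and 8.76%). In SEZ_Prom 0 passed (2.82% and 2.33%), also at an unadjusted p under 0.05 (10.2% and 9.08%). The median in the CD24 sort was -0.58, against -0.01 over all genes. Shmt1 and Shmt2, the hydroxymethyltransferases that turn serine into glycine and charge folate, were higher in SEZ_GFPprom than in DIEC_GFP by 0.89 (adjusted p = 0.00961) and 1.12 (adjusted p = 0.0234). In SEZ_GFP Shmt1 was higher than in DIEC_GFP by 1.63 (adjusted p = 0.0014), and Shmt2 did not pass (1.19, 0.0562). Neither passed in SEZ_Prom or SEZ_CD24. Gatm, which uses glycine at the start of creatine synthesis, averaged 7.23 in SEZ_GFPprom, 7.19 in SEZ_GFP, 10.14 in SEZ_Prom, 8.39 in SEZ_CD24 and 10.46 in DIEC_GFP. It was lower in SEZ_GFPprom than in DIEC_GFP by -3.23 (adjusted p = 0.00151) and lower than in SEZ_Prom by -2.91 (adjusted p = 0.0163). Gamt, which completes creatine, was lower in SEZ_CD24 than in DIEC_GFP by -3.57 (adjusted p = 0.000839). Oligodendrocyte markers (9 measured) summed to 10136 to 15314 in SEZ_GFPprom, 4745 to 7077 in SEZ_GFP, 34582 to 36397 in SEZ_Prom, 6485 to 11416 in SEZ_CD24 and 32012 to 45237 in DIEC_GFP, and their part in these values was not tested.

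Of 13 further genes of transsulfuration and glutathione synthesis 12 were measured, with 0 called by limma in SEZ_GFPprom against DIEC_GFP and 4 at an unadjusted p under 0.05 (2 higher and 2 lower, as were 18.7% and 12.8% of all genes). In the CD24 sort against DIEC_GFP the median was -0.26, and -0.01 over all genes. There 3 fell and 0 rose, where 8.76% of all genes fell and 6.03% rose. These were Cdo1, the cysteine dioxygenase (-1.84, adjusted p = 0.0082), and the glutathione synthesis genes Gclm (-1.05, adjusted p = 0.0139) and Gss (-2.13, adjusted p = 0.0141). SEZ_GFPprom exceeded SEZ_GFP in Gclm by 1.06 (adjusted p = 0.0462), the 1 gene of the 4 lists called between these sorts. Of all genes 2.22% were called higher and 0.346% lower there.

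Of 18 further genes of folate carbon transfer 16 were measured. By limma 0 passed in SEZ_GFPprom against DIEC_GFP (median -0.03), where 8.83% of all genes were higher and 6.77% lower. At an unadjusted p under 0.05, 2 were higher and 0 lower, against 18.7% and 12.8% of all genes. SEZ_GFP had 3 higher than DIEC_GFP and 0 lower, where 4.94% and 6.10% of all genes were. SEZ_Prom had 0 higher and 1 lower (2.82% and 2.33% of all genes), and the CD24 sort 1 higher and 1 lower (6.03% and 8.76%). Mthfd2l, a mitochondrial folate dehydrogenase, averaged 7.88 in SEZ_GFPprom, 9.02 in SEZ_GFP, 5.65 in SEZ_Prom, 8.89 in SEZ_CD24 and 7.31 in DIEC_GFP. It was higher in SEZ_GFP than in DIEC_GFP by 1.71 (adjusted p = 0.012) and lower in SEZ_Prom than in DIEC_GFP by -1.66 (adjusted p = 0.0249). Ggh, which shortens the glutamate tail of folates, was lower in SEZ_CD24 than in DIEC_GFP by -2.04 (adjusted p = 0.000555). Cell cycle genes (9 measured) summed to 4953 to 7781 in SEZ_GFPprom, 10032 to 11523 in SEZ_GFP, 2294 to 2398 in SEZ_Prom, 5047 to 6239 in SEZ_CD24 and 460 to 1068 in DIEC_GFP. The part of dividing cells in the folate genes was not tested.

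**Figure D4:**
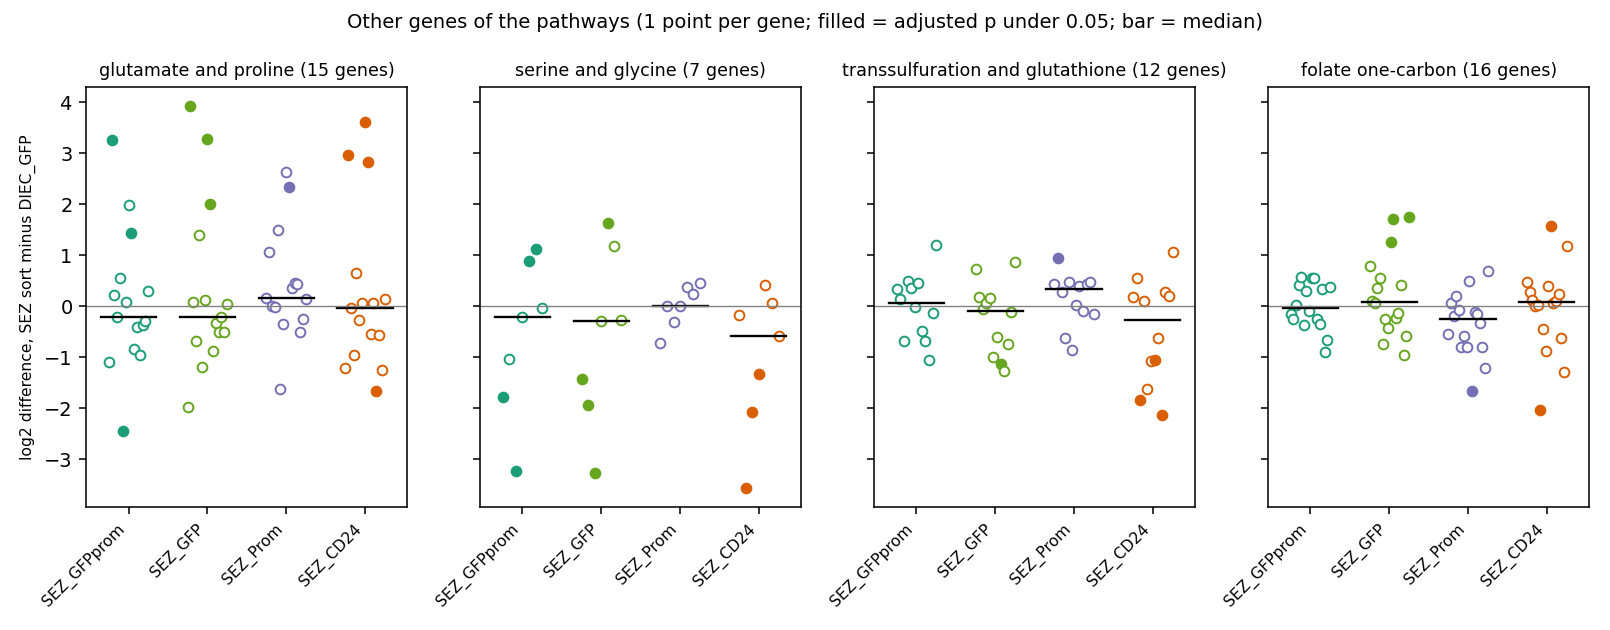
Log2 difference from DIEC_GFP of each further measured gene of the 4 pathway lists (points) in the SEZ sorts, with the median of the list (bar), filled where the adjusted p of limma is under 0.05. The CD24 sort has 3 genes lower than DIEC_GFP both in the serine and glycine list and in the transsulfuration and glutathione list. Of all genes 8.76% are lower there.

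The genes whose profile over the 14 arrays was most like each enzyme were sought by Pearson's r among 8814 genes, as a description with no test. For Etnppl the nearest were Lrig1 (r = 0.974) and Ctsl (r = 0.960), and for Aldh1l1 Ttyh1 and Aldoc (both r = 0.957). For Psat1 Alcam came first (r = 0.958), as it did for Phgdh (r = 0.937), and for Psph Rgcc (r = 0.957). Glud1 was nearest to Ahcyl1 (r = 0.946), Prodh to Slc25a4 (r = 0.941), Cbs to Ppib (r = 0.935) and Gldc to Dkk3 (r = 0.904). Glul had the loosest nearest gene, St3gal6 (r = 0.810). Among the 10 enzymes the lowest correlation was that of Etnppl and Gldc (r = -0.449). The 14 arrays behind each value share their 5 groups.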

How the data were processed

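RNA of cells sorted by flow cytometry was amplified in 2 rounds and hybridised to 14 Affymetrix arrays, per the labels' protocols. The authors deposited RMA values (RMA as named in the submitters' processing notes, version not given in the sources used here) as linear intensity rounded to whole numbers. The planned design assumed log2 values, so log2 of the deposited intensity was taken, with no pseudocount. Of 45101 probe sets 64 controls were left out; the platform annotation gave 34945 of the remaining 45037 a single gene symbol, 932 several and 9160 none.

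A mean per group was fitted over all 14 arrays with limma 3.58.1 in R 4.3.3 (lmFit, eBayes, 9 residual and 2.305 prior degrees of freedom), with 7 comparisons and an F test. P-values were Benjamini-Hochberg adjusted over 45037 probe sets and read at 0.05. The fit was tested on simulated data. Each gene was read by the probe set with the highest mean, and levels of different genes were not compared. The number of arrays limits the precision. Named are the 10 genes with all their probe sets, up to 4 genes of a pathway list with the smallest adjusted p of a comparison, and the nearest genes by Pearson's r. The labels name no batch or date. Members, lists and tests were chosen with earlier results of these data known. The alternatives were other scalings, filters, probe set choices and fits, and each array left out in turn.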

Additional observations from a re-analysis of the deposited data

Results flagged for a closer look

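In groups of 4 arrays the highest or lowest array was set against the others by the ratio of its gap to the whole range (Dixon's test at 95%). Of 38 groups tested 4 passed, and chance flags about 1 in 20 groups.

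Etnppl stood at 8.46 on DIEC_GFP replicate 4 and at 10.64 to 10.95 on the other 3 DIEC_GFP arrays (ratio 0.875). Aldh1l1 stood at 7.94 on SEZ_GFPprom replicate 3 and at 8.40 to 8.46 on the others (ratio 0.895). The dimmer Glul probe set stood at 6.74 on SEZ_GFPprom replicate 1 and at 7.64 to 7.80 on the others (ratio 0.852). The dimmer Cbs probe set stood at 5.32 on SEZ_GFPprom replicate 4 and at 5.59 to 5.61 on the others (ratio 0.898).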

How the results depend on the processing

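Of 70 differences of single genes 18 passed the threshold, 8 of them under all alternatives run, and 10 were lost under at least 1. Of the 52 that did not pass 12 passed under at least 1, and 0 changed sign while called. The counts of called genes moved as follows. Without the dimmest 50% of probe sets 4 genes were called in SEZ_GFPprom and 2 in SEZ_GFP against DIEC_GFP. With 1 probe set per gene, or without shared-sequence probe sets, 2 were called in SEZ_GFP. With the 3' to 5' signal ratio as covariate 0 were called in SEZ_GFP and 0 in SEZ_Prom. With only the groups compared in the fit 0 were called in SEZ_Prom and 3 in SEZ_CD24 against DIEC_GFP, and 0 between SEZ_GFPprom and SEZ_Prom. Leaving out 1 array gave 2 to 4 calls in SEZ_GFPprom, 0 to 3 in SEZ_GFP, 0 to 1 in SEZ_Prom and 2 (without SEZ_CD24 replicate 2) to 8 (without DIEC_GFP replicate 4) in SEZ_CD24 against DIEC_GFP, 0 to 2 between SEZ_GFPprom and SEZ_Prom and 4 to 7 between SEZ_GFPprom and SEZ_CD24; the cause was not tested beyond the arrays named above. Over all genes the fit with the covariate made 1161 calls in SEZ_GFPprom against DIEC_GFP (2837 without it), 1025 in SEZ_GFP (2007) and 364 in SEZ_Prom (937). With only the groups compared, there were 1127 calls in SEZ_GFP, 280 in SEZ_Prom and 1269 in SEZ_CD24 (2690 with all groups), 232 between SEZ_GFPprom and SEZ_GFP (467), and 1263 (2186) between SEZ_GFPprom and SEZ_CD24. No shared deviation was seen between arrays with the same replicate number (22 pairs, r from -0.188 to 0.129). In the 54 other pairs r was -0.186 to 0.188. Whether the numbers pair the samples cannot be told from this, since in groups of 2 arrays the deviations mirror each other. With a replicate block 549 genes were called in SEZ_Prom against DIEC_GFP, 557 (979 without it) between SEZ_GFPprom and SEZ_Prom and 1405 between SEZ_GFPprom and SEZ_CD24, where Prodh also passed (1.64, adjusted p = 0.0178).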
